A study of Mus musculus with 4 samples.

Results

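The miR-10, miR-196 and miR-615 miRNAs are encoded within the Hox gene clusters of the mouse and were measured here by 6 of the 566 mouse miRNA probes of a NanoString nCounter panel, an assay that counts each mature miRNA through its own barcoded probe. The 6 probes (mmu-miR-10a, mmu-miR-10b, mmu-miR-196a, mmu-miR-196b, mmu-miR-615-3p and mmu-miR-615-5p, written below without the species prefix) were taken by name, with any arm, copy or star form. Replicates 1 and 2 are given in that order throughout. None of the 6 was above the background of the panel in either genotype, and none passed the test for a difference. Levels were compared between the WT R1 line of mouse embryonic stem cells (ESCs) and R1 ESCs in which DNMT1, DNMT3a and DNMT3b are knocked out (TKO), with 2 biological replicates of each and 4 samples in all. The labels give the same culture for all samples, on gelatin with leukemia inhibitory factor (LIF), and also state 4 days of differentiation before RNA isolation, without naming an inducing agent. The sources do not say how many TKO clones were used, so a difference between the lines that has nothing to do with the 3 enzymes cannot be told apart from the genotype.

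Hox genes encode the transcription factors that set position along the head-to-tail axis of the embryo, and they lie in 4 clusters, HoxA to HoxD, in the order in which they are used along that axis. The clusters are kept silent in pluripotent ESCs, mostly through Polycomb, and open in sequence when ESCs differentiate under signals such as retinoic acid. miR-10 genes sit beside the Hox4 genes and miR-196 genes beside the Hox9 and Hox10 genes. Both families are known to be expressed in the trunk of the embryo and to act on Hox mRNAs, and the pairing of miR-196 with Hoxb8 mRNA is close enough for the transcript to be cut. miR-615 lies within Hoxc5, and much less is known of its role.

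The mature sequences show how near the paralogs are and which of them are read by a shared seed, the bases from 2 to 8 that pair with target mRNAs. They come from RefSeq for GRCm38.p6, in which all 6 probe names were matched, those without an arm to the 5p form. Seeds are in capitals.
miR-10a: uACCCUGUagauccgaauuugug
miR-10b: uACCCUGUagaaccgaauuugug
miR-196a: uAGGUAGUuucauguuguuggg
miR-196b: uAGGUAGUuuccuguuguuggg
miR-615-3p: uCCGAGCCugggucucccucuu
miR-615-5p: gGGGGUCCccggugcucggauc
miR-10a and miR-10b share their seed, and differ at 1 of 23 bases (U12A, miR-10a before miR-10b, counted from the 5′ end). miR-196a and miR-196b also share a seed and differ at 1 of 22 bases (A12C, miR-196a before miR-196b). A probe that tolerates 1 mismatch would read both members of a pair, and the files hold no probe sequences with which to test this. No other mature mouse miRNA of the table has the seed of either family, or that of either arm of miR-615.

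Relatives of both families stand outside the Hox clusters and are shown because most of their probes were above background in the same samples. miR-99a belongs to the miR-10 superfamily but has another seed, and most let-7 miRNAs, but not let-7e or let-7k, carry the miR-196 seed moved by 1 base.
miR-99a: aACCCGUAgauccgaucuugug
let-7g: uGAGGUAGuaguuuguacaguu
The 7 bases of the miR-196 seed occur at bases 3 to 9 in 9 mature mouse miRNAs of the table, of which 8 are let-7 miRNAs or miR-98.

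The precursors lie on 4 chromosomes, each within a Hox cluster. In GRCm38.p6 the mature miR-10a is encoded at chr11:96317186-96317208 on the plus strand, within the annotated span of Hoxb3 and with its precursor 992 bp from Hoxb4. The mature miR-10b is at chr2:74726074-74726096 on the plus strand, within the spans of both Hoxd3 and Hoxd4, which are transcribed from the same strand. miR-196a comes from a pair of genes with identical mature sequence, so its probe reads their sum. The copy in HoxB is at chr11:96265187-96265208 on the plus strand, between Hoxb13 and Hoxb9, and that in HoxC is at chr15:102973365-102973386 on the plus strand, between Hoxc10 and Hoxc9. miR-196b is at chr6:52230129-52230150 on the minus strand, between Hoxa9 and Hoxa10, which share that strand. Both arms of miR-615 come from the span of Hoxc5, the 5p arm from chr15:103014926-103014947 and the 3p arm from chr15:103014969-103014990 on the plus strand. Only spans were available for the genes, so exons, introns and UTRs are not told apart.

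**Figure D1:**
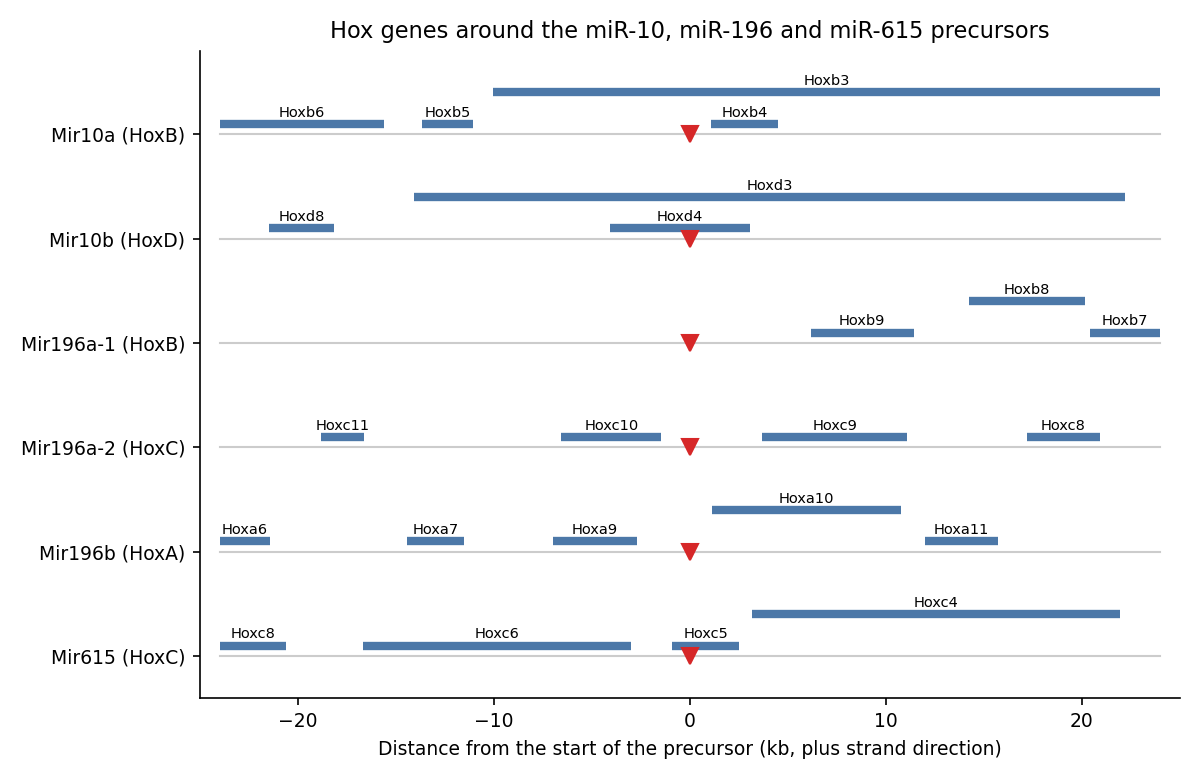
Position of the 6 precursors (red triangles) among Hox genes (blue bars, annotated span in GRCm38.p6). The x axis is the distance from the precursor start in kb along the plus strand, and bars are cut at its edges; Mir10a, Mir10b and Mir615 fall within a Hox gene span and the 3 Mir196 precursors between Hox genes.

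CpG dinucleotides are the sites that DNMTs methylate. The precursor of miR-10a held 3 in 110 bases, that of miR-10b 2 in 68, that of miR-196b 3 in 85, that of miR-196a-1 2 in 102 and that of miR-196a-2 1 in 85, against a median of 1 over 1005 mouse hairpins. Per base, the hairpins of miR-10a, miR-10b, miR-196a-1 and miR-196b held more CpGs than 63.0% to 80.2% of these hairpins, and that of miR-196a-2 more than 42.7%. No hairpin sequence of miR-615 was available for this count. In the study's list of methylation patterns around mouse precursors, those of miR-10a, miR-10b, miR-196a-1 and miR-196b are listed as flat. The paper counts this group as unmethylated at the precursor borders, but also describes it as evenly methylated along the locus. The precursors of miR-196a-2 and miR-615 are listed as methylated at the upstream border. The miR-196a probe therefore covers a precursor of either kind.

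The authors deposited normalized log2 values, which were turned back to normalized counts. The samples held between 511661 and 613666 recovered counts over all 599 probes, and replicates correlated at 0.986 (WT) and 0.985 (TKO) over the log2 values of the mouse probes. The panel includes 33 probes for viral miRNAs, which have no target in these cells and serve as an estimate of background. Their mean was 31.5 normalized counts, and 69.2 normalized counts (viral mean plus 2 SD over the viral probes) was the level that the mean of a miRNA had to exceed to count as above background. This held for 238 of the 566 mouse probes (42.0%). The miR-290 to miR-295 cluster that marks ESCs summed to between 332117 and 338120 normalized counts in WT cells and between 271498 and 295039 in TKO cells, with 8 of its 11 probes above background. Of the markers of other cell types, 0 of 6 for muscle and 0 of 1 for liver were above background, whereas 3 of 5 for fibroblasts or mesenchyme were, and all 5 together summed to between 481 and 525 in WT and between 422 and 423 in TKO cells. Neuron markers (2 of 4 above background) summed to between 621 and 720 in WT and to between 300.2 and 302 in TKO cells, and blood markers (2 of 5) to between 906 and 967 and to between 1295 and 1446. The neuron sum was carried by miR-124 (difference -1.84 in log2(normalized count + 1), TKO minus WT), while miR-9 was at -0.29, miR-128 at -0.21 and miR-137 at 0.36. In the blood sum miR-142-3p was at 0.63 and miR-223 at -0.64. The part of such cells in the differences below was not tested.

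miR-196a, a repressor of Hoxb8, gave the highest signal of the 6 probes. Its level was 66.4 and 41.8 normalized counts in WT replicates 1 and 2, and 47.4 and 47.2 in TKO replicates 1 and 2. It was above the mean of the viral probes in each sample, at 1.81 and 1.45 times that mean in WT cells and at 1.69 and 1.45 times in TKO cells. The genotypes overlapped, with WT replicate 1 the highest and WT replicate 2 the lowest sample. The 95% exact Poisson interval of WT replicate 2, the sample with the lowest signal, ran from 30.2 to 56.3 normalized counts against a viral mean of 28.7 in that sample. Yet between 5 and 7 of the 33 viral probes were higher in each sample, so that a signal of this size also arises without a target. Poisson intervals cover counting error only.

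miR-196b, the HoxA paralog with the same seed, had a low count in all samples. Its level was 10.7 and 9.71 normalized counts in WT and 14.8 and 20.4 in TKO cells. Both TKO values were above both WT values, as for 17.3% of all mouse probes, and all 4 values were below the viral mean of their sample. These levels rest on 10 recovered counts in each WT replicate and on 15 and 19 in the TKO replicates. The 95% exact Poisson interval was 5.13 to 19.7 normalized counts in WT replicate 1 and 12.3 to 31.8 in TKO replicate 2, and these intervals overlapped.

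miR-10a, the HoxB member of the miR-10 pair, was at 26.8 and 14.6 normalized counts in WT and at 20.8 and 15.0 in TKO cells. The genotypes overlapped, and the WT replicates lay farther apart than the genotype means of 20.7 ± 8.61 and 17.9 ± 4.06 (SD, n = 2 each). miR-10b, the HoxD member, was at 17.1 and 12.6 normalized counts in WT and at 14.8 and 17.2 in TKO cells, again with overlap. All 8 values of the pair were below the viral mean of their sample. Between 4 and 15 of the 33 viral probes were lower than miR-10a and between 6 and 10 were lower than miR-10b.

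Both arms of miR-615 were also below the viral mean of each sample. The 3p arm was at 12.8 and 10.7 normalized counts in WT and at 10.9 and 17.2 in TKO cells. The 5p arm was at 12.8 and 5.83 normalized counts in WT and at 6.92 and 10.7 in TKO cells, and it lay below every viral probe in WT replicate 2 and TKO replicate 1. Both arms overlapped between the genotypes. With 6 recovered counts, the 5p arm in WT replicate 2 had a 95% exact Poisson interval of 2.14 to 12.7 normalized counts.

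**Figure D2:**
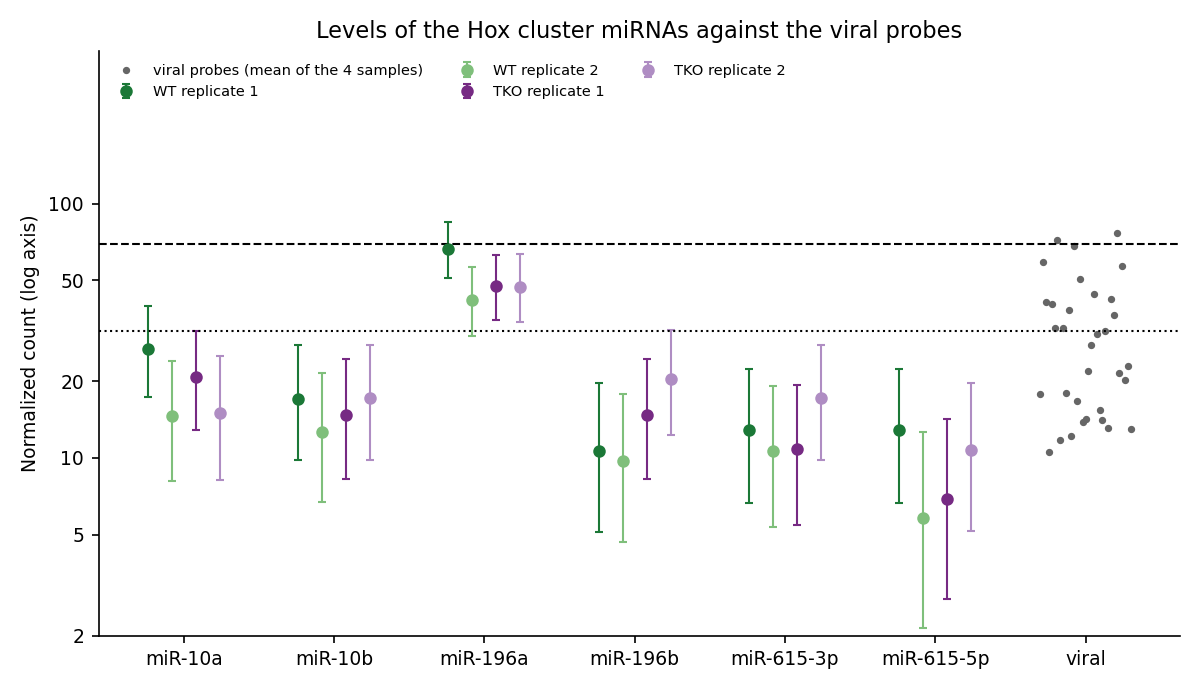
Normalized counts (log axis) of the 6 Hox cluster miRNAs in the 4 samples, with 95% exact Poisson intervals as bars, beside the mean of each of the 33 viral probes. The dotted line is the viral mean (31.5) and the dashed line the viral mean plus 2 SD (69.2); every point of the 6 miRNAs lies under the dashed line and only miR-196a lies above the dotted one.

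In order of the mean over the 4 samples, miR-196a (50.7 normalized counts) was followed by miR-10a (19.3), miR-10b (15.4), miR-196b (13.9), miR-615-3p (12.9) and miR-615-5p (9.08). The lowest value of miR-196a was above the highest value of any of the others, while the ranges of all further neighbours in this order overlapped, and in WT cells alone miR-196b (mean 10.2) was below miR-615-3p (11.8). Probes can differ in efficiency and in background, so this is an order of signals and not of molecules. Among all mouse probes, miR-196a stood at the 49.3rd percentile of mean signal, miR-10a at the 20.5th and miR-615-3p at the 8.83rd. Together the 6 probes took between 0.0160% and 0.0249% of the mouse signal of a sample. No single value of the 6 in any sample passed 69.2, and 0 of 6 also passed the mean of the highest viral probe, 76.8 normalized counts. In bulk RNA, few cells with the miRNA and little of it in every cell cannot be told apart, and none of the 6 was detectable above this background. miRNAs with a similar pattern over the samples are therefore not named.

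**Figure D3:**
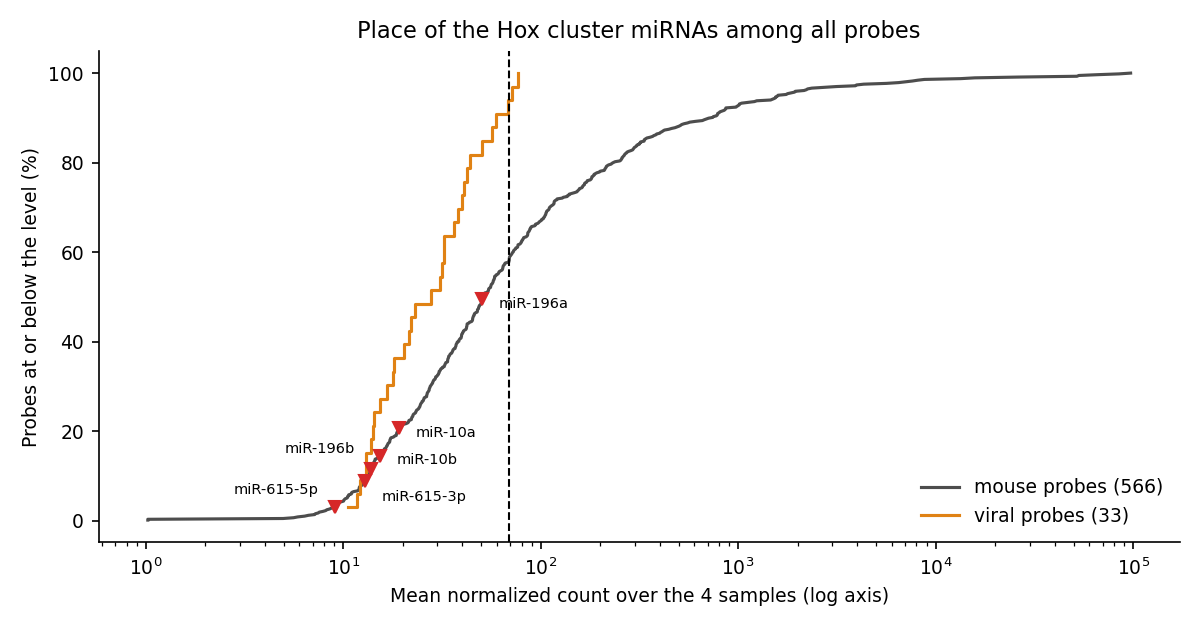
Cumulative share of probes (y axis, %) by mean normalized count over the 4 samples (log x axis) for the 566 mouse and the 33 viral probes, with the 6 Hox cluster miRNAs as triangles and the background of 69.2 as a dashed line. miR-615-5p lies below the lowest viral probe and the other 5 within the range of the viral probes.

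The comparison of TKO with WT cells asks whether loss of the DNMTs changes the level of a mature miRNA. limma with Benjamini-Hochberg adjustment called 0 of the 6 miRNAs at an adjusted p of 0.05, against 8.48% of the mouse probes (4.24% higher and 4.24% lower in TKO cells) and 2.13% of the 328 mouse probes that were not above background. At an unadjusted p under 0.05 it was 1 of 6, against 23.5% of all mouse probes. limma's voom on the recovered counts also called 0 of 6, and 30 higher and 55 lower over all mouse probes. At such shares, 0 of 6 calls says nothing particular of these miRNAs. Differences are given in log2(normalized count + 1), TKO minus WT, a scale on which changes of weak signals look smaller than they are. Of the 6, 3 were higher and 3 lower in TKO cells, with a median difference of 0.048, against -0.12 over all mouse probes and 0.012 over the viral probes.

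The largest difference was that of miR-196b, at 0.72 (SE 0.21, 95% interval 0.16 to 1.27, adjusted p = 0.137 from limma). It was the 1 member whose groups did not overlap, whereas 53.4% of all mouse probes did not overlap, 17.3% with TKO higher and 36.0% with TKO lower. Its difference did not pass the adjusted threshold under any alternative that gave a value, with adjusted p between 0.0651 and 0.338 from limma, and it was 0.44 with a pseudocount of 10. The viral probes, treated the same way, had differences between -1.56 and 0.64 with an SD of 0.40 over the 33 probes. The difference of 1 of them was at least as large in size as that of miR-196b, and it was a fall. No viral probe rose as much. miR-196a, which shares the seed, was at -0.15 (SE 0.26, 95% interval -0.85 to 0.55, adjusted p = 0.786 from limma).

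The log2 ratio of the miR-196a signal over that of miR-196b was 2.53 and 1.998 for the WT samples, and 1.61 and 1.17 for those of TKO cells. The genotypes did not overlap in this ratio. Of single mouse probes 53.4% did not overlap either, but the share among ratios of probes was not counted. The mean log2 ratio fell by 0.87 from WT to TKO, with SDs of 0.37 and 0.31 between replicates (n = 2 each). The value was -0.58 with a pseudocount of 10. Background subtraction gave no value, because miR-196b was at the floor in every sample. Neither probe was above background, the ratio includes the values of miR-196b already given, and it was not tested.

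For the miR-10 pair, the difference was -0.16 for miR-10a (SE 0.35, 95% interval -1.08 to 0.77, adjusted p = 0.838 from limma) and 0.11 for miR-10b (SE 0.21, 95% interval -0.45 to 0.67, adjusted p = 0.805). As fold changes of the level plus 1, the intervals ran from 0.472 to 1.71 for miR-10a and from 0.732 to 1.59 for miR-10b. A fall or rise of the signal within them is not excluded. The intervals are not adjusted for the number of probes and are not limits of detection. Because these signals were below the viral mean of each sample, the intervals set no limit on a change of the miRNAs themselves. The log2 ratio of miR-10a over miR-10b was 0.61 and 0.19 for the WT samples, and 0.46 and -0.18 for those of TKO cells, with overlap. The direction of miR-10a rests on WT replicate 1, since the difference was 0.26 without it, and it was also positive without TKO replicate 2 (0.065). That of miR-10b was -0.097 without WT replicate 2, and that of miR-196a was 0.18 without WT replicate 1.

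For miR-615, the difference was 0.21 for the 3p arm (SE 0.26, 95% interval -0.50 to 0.91, adjusted p = 0.696 from limma) and -0.013 for the 5p arm (SE 0.42, 95% interval -1.12 to 1.10, adjusted p = 0.992). The interval of the 5p arm was the widest of the 6. Without TKO replicate 2 the difference of the 3p arm was -0.099. That of the 5p arm was 0.50 without WT replicate 1 and 0.27 without TKO replicate 1, and its direction also turned when the samples were scaled in another way.

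**Figure D4:**
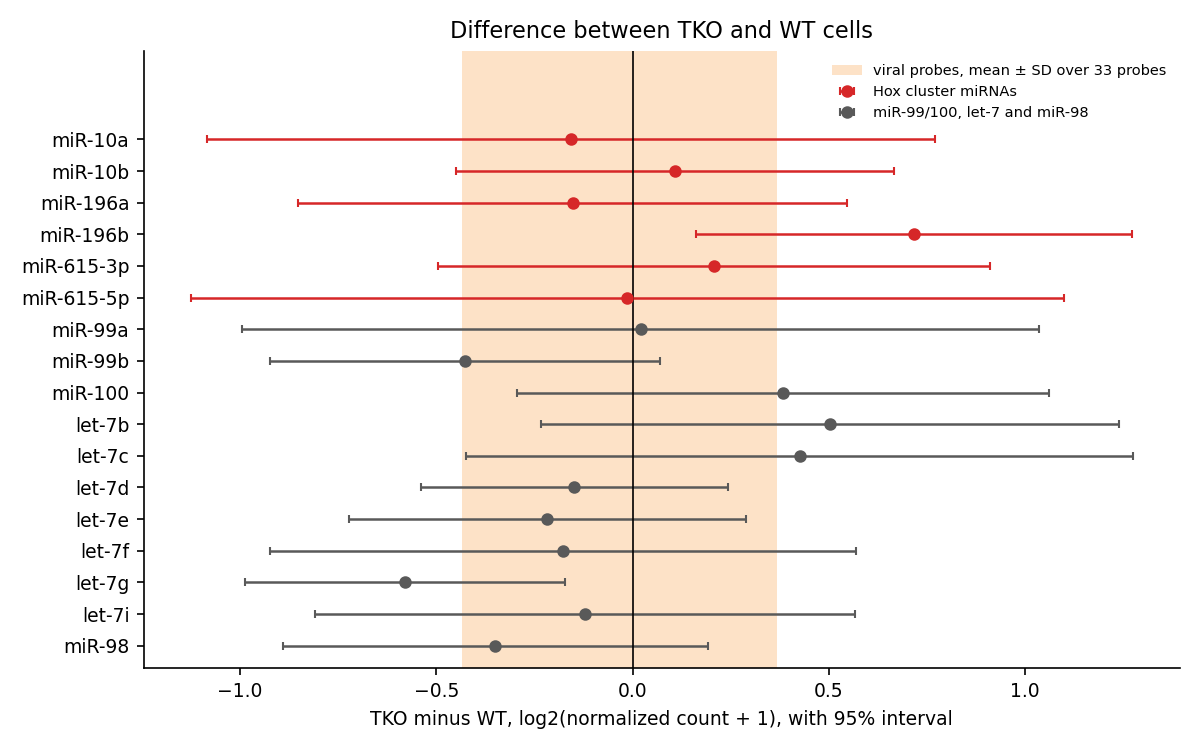
Difference between TKO and WT cells in log2(normalized count + 1) with its 95% interval from limma (bars) for the 6 Hox cluster miRNAs (red) and for miR-99a, miR-99b, miR-100, let-7 other than let-7a, and miR-98 probes (grey). The shaded band is the mean ± SD of the differences of the 33 viral probes; only the intervals of miR-196b and let-7g leave out 0, and neither passed the adjusted threshold.

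Most relatives outside the Hox clusters gave clearer signals from the same RNA. Of the miR-99/100 probes, 2 of 3 were above background and 0 of 3 were called by limma, a number too small to set against the 8.48% of all mouse probes, with differences between -0.43 and 0.38. miR-99b, encoded beside let-7e and miR-125a, was the most abundant of them, at 178 and 195 normalized counts in WT and at 155 and 123 in TKO cells. Both TKO values were below both WT values, a pattern shown by 36.0% of all mouse probes. The difference of miR-99b, -0.43, did not pass (SE 0.19, adjusted p = 0.258 from limma). miR-99a had a mean of 74.8 normalized counts, above 69.2 but below the mean of the highest viral probe, 76.8. It was at 57.3 in WT replicate 2 and at 54.4 in TKO replicate 1.

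Of the 9 probes for let-7 and miR-98, which repress Lin28 and Myc among others and accumulate as ESCs differentiate, 7 were above background and 0 were called by limma, against 8.48% of all mouse probes, a share at which 0 of 9 calls says nothing particular of the family. Their median difference was -0.15, against -0.12 over all mouse probes. let-7g was at 645 and 720 normalized counts in WT and at 465 and 447 in TKO cells. Its difference was -0.58 (SE 0.15, 95% interval -0.99 to -0.17, adjusted p = 0.115 from limma). The probe of let-7a was listed at 1.07, 0.97, 0.99 and 1.07 normalized counts, the lowest value of each sample and equal to 1 recovered count. miR-155 had the same group means, and no viral probe was below 7.77 in any sample. Whether this is a measured count or a floor value is not known. let-7a is included in the counts and median of these 9 probes and of the list that follows.

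A list of 30 miRNAs that are known to rise in early differentiation or to mark a lineage, let-7 included, gives the levels of other miRNAs of the early embryo in the same samples. Of its probes 18 were above background, 3 were called higher and 1 lower in TKO cells by limma, where 42.0% of all mouse probes were above background, 4.24% were called higher and 4.24% lower. The median difference of the list was -0.071, against -0.12 over all mouse probes. miR-22, which acts on chromatin regulators of the TET family, rose from 1149 and 1221 normalized counts in WT to 2441 and 2616 in TKO cells (difference 1.09, SE 0.15, adjusted p = 0.0225). miR-21, a miRNA of many differentiated tissues, rose from 449 and 476 to 910 and 925 (difference 0.99, SE 0.15, adjusted p = 0.0263). miR-124, a marker of neurons, fell from a mean log2(normalized count + 1) of 8.90 in WT to 7.07 in TKO cells (difference -1.84, SE 0.15, adjusted p = 0.00620). The third that rose was miR-470, of a cluster known from the germline, from 15.0 and 21.4 to 96.9 and 71.8 (difference 2.16, SE 0.26, adjusted p = 0.0168). Its mean over the 4 samples, 51.3, was not above background, but both TKO values were above 69.2. Lineage markers with signals as weak as those of the Hox cluster miRNAs, chosen after their values were seen, were miR-1 (muscle), between 7.50 and 13.6 normalized counts over the 4 samples, miR-122 (liver), between 11.8 and 17.8, and miR-375 (pancreatic islets), between 10.7 and 15.0.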

How the data were processed

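Total RNA was assayed for mature miRNAs on the NanoString nCounter. The log2 values deposited by the authors are counts that they had normalized in nSolver. The software version, the handling of background and the probes that set the scaling are not given in the sources used here. The values were turned back to normalized counts with 2 decimals, and whole counts were recovered within 0.05 for 100% of the values of each sample, with factors between 0.971 and 1.07. After a pseudocount of 1, log2 values of all 566 mouse probes were fitted with limma (lmFit and eBayes, genotype as the only term, 2 against 2 samples, two-sided), with Benjamini-Hochberg adjustment at 0.05 over these probes. An exact permutation test was left out because its smallest p is 0.33 at this sample size. p-values measure the spread between these samples.

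The rule for named miRNAs was all 6 members, examples from the lists, and for each member above background the probes nearest in pattern. No member was above background. The members and lists were chosen with earlier results of these data known. Of the marker lists, endothelium had 2 of 2 probes above background, and 1 probe of all the marker lists was called (miR-124, neuron). The limma step was also run on simulated data. The changes there were larger than those of the 6 miRNAs and background was not modelled separately, so that run does not bear on them. Neighbouring genes and sequences came from RefSeq tables of GRCm38.p6. Alternatives covered the pseudocount, scaling, background, filter, test, replicate block and each sample left out. Fits ran in limma 3.58.1 under R 4.3.3, and the rest in Python 3.11.15 with scipy 1.17.1 and pandas 2.3.3.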

Additional observations from a re-analysis of the deposited data

How the results depend on the processing

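None of the 6 miRNAs was called under any alternative that tested it. Background subtraction put all but miR-196a at the floor in every sample and gave no value for them, and none of the 6 entered the fit over probes above background. The 5p arm of miR-615 turned from -0.013 to 0.11 with each sample divided by its sum, 0.083 with viral probe scaling and 0.0996 with median scaling. Sum scaling also moved the median of all mouse probes from -0.12 to 0.0089. Relative to the median of -0.12, the differences as reported were -0.033 for miR-10a, 0.23 for miR-10b, -0.030 for miR-196a, 0.84 for miR-196b, 0.33 for miR-615-3p and 0.11 for miR-615-5p. With a pseudocount of 10, the difference of miR-196b was 0.44. With 1 sample left out, differences ran from -0.57 to 0.26 for miR-10a, -0.097 to 0.31 for miR-10b, -0.48 to 0.18 for miR-196a, 0.50 to 0.93 for miR-196b, -0.099 to 0.51 for miR-615-3p and -0.52 to 0.50 for miR-615-5p. Over all mouse probes, limma called 24 higher and 24 lower. Lower calls were 13 with background subtraction, 48 with only probes above background, 54 with a trend in eBayes and 55 with voom. Sum scaling gave 27 higher and 17 lower and median scaling 27 higher and 18 lower. With 1 sample left out, calls ran from 0 to 13 higher and from 0 to 1 lower. They were 0 without TKO replicate 1 (39 higher and 75 lower at an unadjusted p under 0.05) or TKO replicate 2 (37 higher and 64 lower). Same-numbered replicates did not deviate together (r = -0.094 over mouse probes). The replicate block gave 20 higher and 10 lower calls, and miR-196b an adjusted p of 0.239 from limma.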
